A study of Mus musculus with 14 samples.

Results

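The heat shock chaperones described here are 10 genes of the mouse ventricle: Hspa1a, Hspa1b, Hspa8 and Hsph1 of the HSP70 and HSP110 families, the HSP90 genes Hsp90aa1 and Hsp90ab1, the small heat shock proteins Hspb1 and Cryab, the J-domain protein Dnajb1, and the co-chaperone Bag3. They were chosen by symbol, and all 10 were found among the 54532 genes of the count table. All 10 also passed the filter on low counts, which kept 15876 genes. RNA was taken from ventricles 1 week after transverse aortic constriction (TAC), a surgery that narrows the aorta and loads the left ventricle, or after a sham operation. Mice lacked the chemokine gene Ccl24 (Ccl24 KO) or were wild type, which gave 4 Ccl24 KO TAC hearts, 6 wild type TAC hearts, 2 Ccl24 KO sham hearts and 2 wild type sham hearts. Each library is named by its replicate number and was taken as the heart of 1 mouse, which the replicate numbers alone do not show. Strain, age, sex and the design of the Ccl24 allele were not given in the sources used here.

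Chaperones bind unfolded segments of other proteins and help them fold, refold or be degraded. HSP70 proteins do this in cycles of ATP hydrolysis: J-domain proteins such as Dnajb1 deliver the substrate and start hydrolysis, and exchange factors such as Hsph1 and Bag3 release the nucleotide. HSP90 proteins act later on folding intermediates such as kinases and steroid receptors, while small heat shock proteins hold unfolding proteins without ATP. In heart muscle Cryab, Hspb1 and Bag3 are known for their association with the sarcomere's Z-disc, and many genes of the family are transcribed by heat shock factor Hsf1 when cytosolic proteins unfold.

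The 14 libraries held 17072262 to 33123052 counts in genes, so that 3 counts, taken as the limit below which a gene is not told from 0, equalled 0.0906 to 0.176 CPM (counts scaled to a common library size, with TMM factors that correct for composition). Ccl24 had 3 to 8 counts in the 6 Ccl24 KO libraries and 56 to 105 counts in 7 of the 8 wild type libraries. The library labelled as replicate 1 of wild type TAC had 3 Ccl24 counts, which goes against its label, and values without it are given beside the results they touch most. All 10 cardiomyocyte markers were detected in every library, and their summed level ranged from 72900 to 83600 CPM in Ccl24 KO TAC, from 58900 to 78700 CPM in wild type TAC, from 86200 to 88400 CPM in Ccl24 KO sham and from 78600 to 79900 CPM in wild type sham hearts. Wild type TAC replicate 7 stood apart among the chaperones: it had the highest level of all 14 libraries for 7 of the 10 genes. Mitochondrial genes took 10.1% of its counts, the lowest share, against up to 23.7% in another library.

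Promoter sequences are shown first, because Hspa1a and Hspa1b are near-identical genes with like levels and Dnajb1 is the member that differed between genotypes. The windows hold the bases before the transcript start in RefSeq's annotation of GRCm38.p6, written 5′ to 3′ on the gene's strand. Capitals mark matches to the paired units of a heat shock element, GAANNTTC or TTCNNGAA, which read the same on both strands.
Hspa1a, chr17:34972157-34972406, minus strand: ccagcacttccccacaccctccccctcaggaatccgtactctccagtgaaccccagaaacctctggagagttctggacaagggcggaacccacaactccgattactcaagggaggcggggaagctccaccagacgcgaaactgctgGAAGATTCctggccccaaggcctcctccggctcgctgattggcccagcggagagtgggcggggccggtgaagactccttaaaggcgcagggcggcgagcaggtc
Hspa1b, chr17:34959239-34959488, minus strand: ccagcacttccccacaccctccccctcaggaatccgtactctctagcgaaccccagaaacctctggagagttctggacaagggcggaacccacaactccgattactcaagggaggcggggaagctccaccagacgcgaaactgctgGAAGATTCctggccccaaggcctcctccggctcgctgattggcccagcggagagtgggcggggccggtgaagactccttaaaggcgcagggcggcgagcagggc
Hspb1, chr5:135887669-135887918, plus strand: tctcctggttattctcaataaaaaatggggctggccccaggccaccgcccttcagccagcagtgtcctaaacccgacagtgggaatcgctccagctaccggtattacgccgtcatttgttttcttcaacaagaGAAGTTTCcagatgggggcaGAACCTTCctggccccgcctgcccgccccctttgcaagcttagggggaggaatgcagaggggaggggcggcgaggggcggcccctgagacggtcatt
Dnajb1, chr8:83607925-83608174, plus strand: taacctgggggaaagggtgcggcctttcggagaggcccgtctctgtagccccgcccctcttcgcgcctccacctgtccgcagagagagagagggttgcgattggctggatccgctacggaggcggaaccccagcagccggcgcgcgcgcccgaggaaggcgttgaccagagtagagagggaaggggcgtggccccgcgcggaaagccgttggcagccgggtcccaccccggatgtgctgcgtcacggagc
Hsph1, 30 bases around its match, chr5:149636351-149636380, minus strand: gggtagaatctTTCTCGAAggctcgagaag

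The Hspa1a and Hspa1b windows were identical at 247 of 250 bases (98.8%), and differed by C44T, T47C and T249G, counted from 1 at the 5′ end of the printed window with the Hspa1a base first. Both held GAAGATTC at position -104 from the transcript start. Hspb1 held a pair of matches, at positions -117 and -97, and Hsph1 held TTCTCGAA at position -33. The 250 bases before the Dnajb1 and Bag3 starts held no match. Across all 32851 RefSeq promoter windows of the same length, 12.8% held either motif, 6.69% held GAANNTTC and 7.17% held TTCNNGAA. None of the 6 members with an entry held 3 alternating GAA and TTC units spaced in the same way, which 0.466% of windows held. Hspa8, Hsp90aa1, Hsp90ab1 and Cryab had no entry in the promoter table.

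Reads of several members can also fall on near-identical copies, which bears on every value below. In the GENCODE M21 transcripts, 66.3% of the 50-base stretches of Hspa1a also occurred in another gene, mostly in Hspa1b (58.8%), and 62.3% of those of Hspa1b were shared. The shares were 50.1% for Hspb1 (48.8% with the pseudogene Hsp25-ps1), 47.5% for Hsp90aa1 (41.8% with Gm12346) and 39.4% for Hspa8 (34.6% with Gm15459). They were 13.3% for Cryab, 3.4% for Hsp90ab1, 0.4% for Dnajb1, and 0 for Hsph1 and Bag3. Gm15459 had 4927 to 13708 counts per library, so the level of Hspa8 is uncertain. Hsp25-ps1 had 10 to 98 counts and Gm12346 had 28 to 96 counts. Cryab shares 252 exonic bases (17% of its length) with Hspb2 on the opposite strand, and whether the counting used strand was not given in the sources used here.

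Per kilobase of merged exons, the chaperones ranged from below 1 to above 1000 CPM and kept nearly the same order in all 4 groups. Cryab was highest, at 1480 ± 133 CPM per kb in Ccl24 KO TAC, 1660 ± 328 in wild type TAC, 1110 ± 128 in Ccl24 KO sham and 1340 ± 11 in wild type sham hearts (SD, n = 4, 6, 2 and 2, as for all group values below). Hsp90ab1, the constitutive HSP90, was next at 466 ± 28.1, 508 ± 28.5, 476 ± 40.2 and 511 ± 8.66 CPM per kb in the same 4 groups. Hspa8, the constitutive HSP70, and Hspb1 followed, and their order did not differ beyond their spread in either TAC group: Hspa8 had 289 ± 19.2 and Hspb1 317 ± 49.5 CPM per kb in Ccl24 KO TAC, and Hspa8 had 298 ± 23.7 and Hspb1 426 ± 261 in wild type TAC hearts. Bag3 lay between 112 and 128 CPM per kb and Hsp90aa1, the stress-responsive HSP90, between 30.8 and 48.5 as group means. Hsph1 and Dnajb1 were neighbours at 6.04 to 9.77 CPM per kb. Dnajb1 was above Hsph1 in Ccl24 KO TAC hearts, at 9.55 ± 0.832 and 7.47 ± 0.61, and below it in wild type sham hearts, at 6.14 ± 0.261 and 9.77 ± 0.482. In the other 2 groups they did not differ beyond their spread. The inducible HSP70 genes were lowest, Hspa1a at 0.652 to 1.86 and Hspa1b at 0.528 to 1.58 CPM per kb, and they did not differ beyond their spread in any group. With the longest transcript in place of merged exons, the order of Hspa8 and Hspb1 and that of Dnajb1 and Hsph1 turned round in Ccl24 KO TAC hearts.

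**Figure D1:**
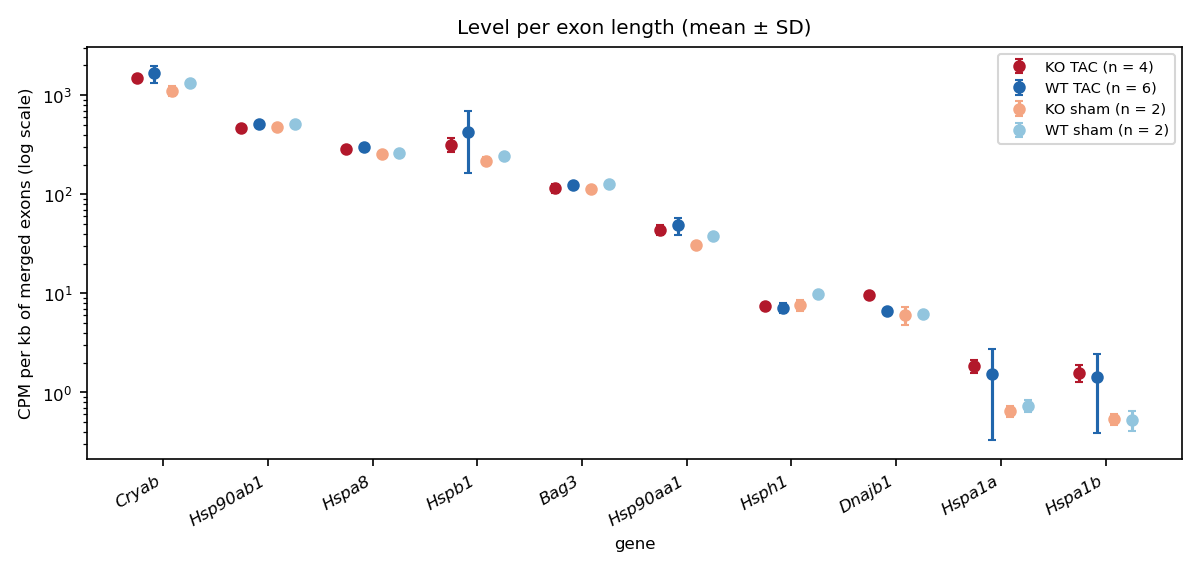
Mean level of the 10 chaperone genes in each of the 4 groups in CPM per kb of merged exons, on a logarithmic axis, with SD bars over libraries. Cryab is highest, at 1110 to 1660 CPM per kb, and Hspa1a and Hspa1b are lowest, below 1.9 CPM per kb in every group.

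The question of the design is how pressure load alters the heart with and without Ccl24. Averaged over both genotypes, 5 of the 10 chaperones were called higher after TAC than after sham and none lower (edgeR quasi-likelihood test, Benjamini-Hochberg adjusted p under 0.05): Hspa1b, Hspa1a, Hsp90aa1, Dnajb1 and Cryab. Of all genes tested, 12.7% were called higher in this comparison and 11.6% lower (24.2% in either direction). The median log2 fold change of the members was 0.38, beside 0.00 over all genes. In bulk tissue, fewer cells of a type and less RNA per cell cannot be told apart.

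Hspa1a (chr17:34969190-34972156, minus strand) and Hspa1b (chr17:34956436-34959238, minus strand), the neighbouring genes of inducible HSP70, were low but measured in every library, with 28 to 385 counts each. Hspa1a had 4.85, 5.81, 4.86 and 6.61 CPM in Ccl24 KO TAC replicates 1, 2, 4 and 5, and a lowest, median and highest level of 2.24, 3.06 and 11.5 CPM in wild type TAC hearts. Its sham levels were 2.11 and 1.76 CPM in Ccl24 KO and 2.39 and 1.98 CPM in wild type hearts. Every Ccl24 KO TAC heart lay above both Ccl24 KO sham hearts, while wild type TAC and sham hearts overlapped and wild type TAC replicate 7 was far above the rest.

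Hspa1b had 3.32, 5.32, 4.68 and 4.37 CPM in the Ccl24 KO TAC hearts in the same order, and 1.76, 3.06 and 9.53 CPM as the lowest, median and highest wild type TAC level. It had 1.64 and 1.37 CPM in Ccl24 KO sham and 1.24 and 1.73 CPM in wild type sham hearts. Every TAC heart was above every sham heart of its genotype, by a narrow margin in wild type. The log2 fold change of TAC over sham averaged over genotypes was 1.29 (SE 0.42, adjusted p 0.0416) for Hspa1a and 1.5 (SE 0.42, adjusted p 0.0216) for Hspa1b by edgeR.

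Because the pair shares sequence, their counts were also summed. The sum gave 1.38 (SE 0.42, edgeR adjusted p 0.033) averaged over genotypes. Within a genotype the sum did not pass the test, with 1.53 (SE 0.61, edgeR adjusted p 0.18) in Ccl24 KO and 1.23 (SE 0.58, edgeR adjusted p 0.17) in wild type hearts.

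The HSP70 calls moved with single libraries, and calls over all genes fell too when any sham heart was left out. Hspa1a lost its averaged call in 9 of the 14 fits that left out 1 library: without any of the 4 sham hearts, any of the 4 Ccl24 KO TAC hearts or wild type TAC replicate 6 (edgeR adjusted p 0.051 to 0.14). Hspa1b lost it without any of the 4 sham hearts (edgeR adjusted p 0.066 to 0.097). Without wild type TAC replicate 7 the averaged log2 fold changes were 1.00 for Hspa1a and 1.25 for Hspa1b, with smaller errors (SE 0.21 and 0.25) and edgeR adjusted p of 0.0023 and 0.0019. Without a filter on low counts the adjusted p were 0.11 and 0.063, and with limma voom 0.084 and 0.058.

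Within Ccl24 KO hearts alone, the TAC to sham log2 fold change of Hspa1a was 1.51 (SE 0.62, edgeR adjusted p 0.181) and that of Hspa1b was 1.55 (SE 0.61, edgeR adjusted p 0.165). Neither passed the test with all libraries. Without wild type TAC replicate 7, whose spread enters the shared dispersion of every comparison, the same contrasts were 1.52 (edgeR adjusted p 0.0062) and 1.56 (edgeR adjusted p 0.014). In wild type hearts the log2 fold changes were 1.06 (SE 0.57, edgeR adjusted p 0.231) and 1.45 (SE 0.58, edgeR adjusted p 0.116). Leaving out replicate 7 brought them to 0.49 for Hspa1a and 0.94 for Hspa1b, and neither was called (edgeR adjusted p 0.27 and 0.086). By DESeq2, with all libraries, Hspa1b passed in wild type (adjusted p 0.031) and both passed in Ccl24 KO hearts (adjusted p 0.045 and 0.042).

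Hspa8 (chr9:40800984-40810087, plus strand), which encodes the HSC70 present in unstressed cells, varied little. It had 1270, 1130, 1230 and 1330 CPM in Ccl24 KO TAC hearts, and 1220, 1240 and 1480 CPM as the lowest, median and highest wild type TAC level. Sham levels were 1100 and 1110 CPM in Ccl24 KO and 1100 and 1170 CPM in wild type hearts. All TAC hearts lay above the sham hearts of their genotype, but the averaged log2 fold change of 0.17 did not pass (SE 0.08, edgeR adjusted p 0.127; approximate 95% interval 0.02 to 0.33, taken as 1.96 SE either side). By DESeq2 the same change of 0.17 passed (adjusted p 0.044).

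Hsph1 (chr5:149614287-149636376, minus strand), the HSP110 that exchanges nucleotide on HSP70, was the 1 member called lower in any comparison. It had 54.8, 47.1, 49.5, 55.2, 62.4 and 45.1 CPM in the 6 wild type TAC hearts, against 73.5 and 68.5 CPM in wild type sham hearts. Every wild type TAC heart was below both wild type sham hearts, and the ratio was 0.736 (log2 fold change -0.44, SE 0.11, edgeR adjusted p 0.0243). In Ccl24 KO it had 50.5, 50.9, 59.8 and 55.8 CPM after TAC against 60.5 and 50.8 CPM after sham, which overlapped (log2 fold change -0.04, approximate 95% interval -0.28 to 0.21). The wild type call was lost without wild type sham replicate 1 (-0.39) or replicate 2 (-0.49). Each of these fits leaves 1 wild type sham heart, and calls over all genes fell in them too. The call was also lost when the wild type groups were fitted alone (-0.45, edgeR adjusted p 0.055), beside 4.74% of all genes called. The sign was negative in all 14 fits that left out 1 library. Without the library labelled as replicate 1 of wild type TAC it was -0.45 (edgeR adjusted p 0.018). Averaged over genotypes, Hsph1 was at the threshold: -0.24 (SE 0.08, edgeR adjusted p 0.0501), which passed with RLE scaling (adjusted p 0.048) and by DESeq2 (adjusted p 0.041). It also passed in 5 of the 14 fits that left out 1 library, among them those without the library labelled as replicate 1 of wild type TAC (-0.25, edgeR adjusted p 0.045) and wild type TAC replicate 7 (-0.23, edgeR adjusted p 0.045). Without the first of these, 5 members were called higher and Hsph1 lower, beside 27.6% of all genes called.

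**Figure D2:**
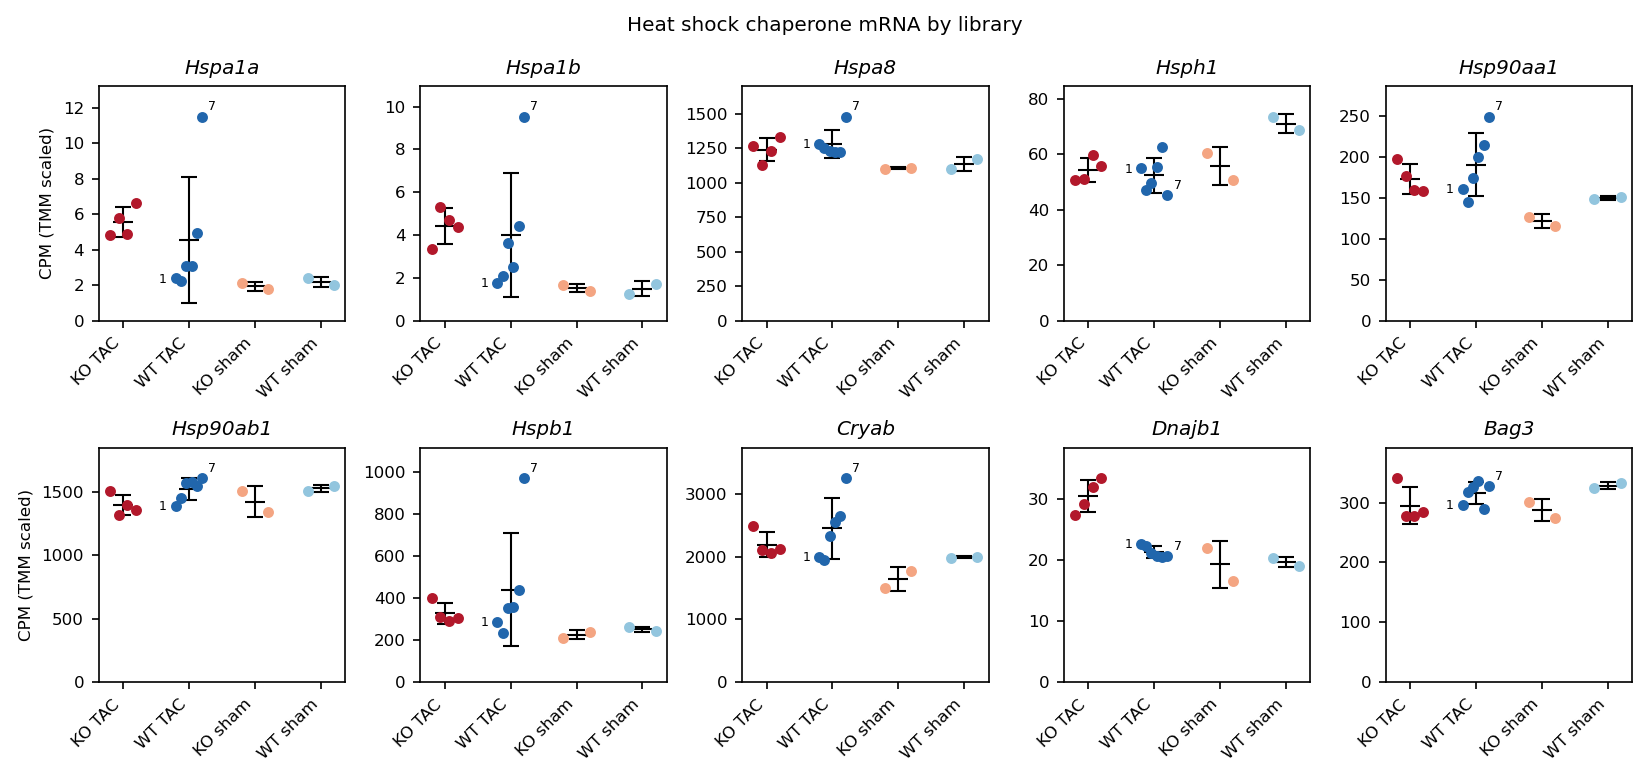
Level of each chaperone gene in every library, in TMM-scaled CPM on axes that start at 0, for Ccl24 KO TAC, wild type TAC, Ccl24 KO sham and wild type sham hearts, with group means and SD bars; the numbers 7 and 1 mark wild type TAC replicates 7 and 1. Replicate 7 is far above the other wild type TAC hearts for Hspa1a (11.5 CPM), Hspa1b (9.53 CPM) and Hspb1 (971 CPM), and all 4 Ccl24 KO TAC hearts are above all other hearts for Dnajb1.

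Of the HSP90 pair, the stress-responsive Hsp90aa1 moved and the constitutive Hsp90ab1 was not seen to. Hsp90aa1 (chr12:110690605-110702728, minus strand) had 197, 176, 159 and 158 CPM in Ccl24 KO TAC hearts, against 127 and 115 CPM in Ccl24 KO sham hearts, with no overlap. In wild type hearts it had 145, 187 and 249 CPM as the lowest, median and highest TAC level, against 148 and 151 CPM after sham, and wild type TAC replicate 2 fell below both sham hearts. The averaged log2 fold change was 0.43 (SE 0.12, edgeR adjusted p 0.0171). It lost the call without any of the 4 sham hearts (edgeR adjusted p 0.058 to 0.07). Within Ccl24 KO it was 0.51 (SE 0.17, edgeR adjusted p 0.105), which passed without wild type TAC replicate 7 (0.51, edgeR adjusted p 0.03).

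Hsp90ab1 (chr17:45567775-45573271, minus strand) had 1510, 1320, 1400 and 1360 CPM in Ccl24 KO TAC hearts, and 1390, 1560 and 1610 CPM as the lowest, median and highest wild type TAC level. It had 1510 and 1340 CPM in Ccl24 KO sham and 1510 and 1550 CPM in wild type sham hearts. TAC and sham hearts overlapped in both genotypes, and the averaged log2 fold change was -0.02 with an approximate 95% interval of -0.17 to 0.13.

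Among the small heat shock proteins, Cryab passed the averaged test and Hspb1 did not. Cryab (chr9:50751325-50756636, plus strand), alpha B-crystallin, had 2480, 2110, 2050 and 2120 CPM in Ccl24 KO TAC hearts, against 1500 and 1770 CPM in Ccl24 KO sham hearts, with no overlap. Wild type TAC hearts had a lowest, median and highest level of 1940, 2440 and 3250 CPM, against 1980 and 2000 CPM in wild type sham hearts, and overlapped them. The averaged log2 fold change was 0.36 (SE 0.13, edgeR adjusted p 0.0457). This call stood in 3 of the 14 fits that left out 1 library: those without the library labelled as replicate 1 of wild type TAC (0.39, edgeR adjusted p 0.022), wild type TAC replicate 7 (0.30, edgeR adjusted p 0.035) and wild type TAC replicate 2. In the other fits the edgeR adjusted p ran from 0.052 to 0.2.

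Hspb1 (chr5:135887919-135889563, plus strand), the mouse HSP25, had 402, 310, 291 and 304 CPM in Ccl24 KO TAC hearts, against 210 and 240 CPM in Ccl24 KO sham hearts. It had 235, 353 and 971 CPM as the lowest, median and highest wild type TAC level, against 260 and 241 CPM in wild type sham hearts. The Ccl24 KO groups did not overlap and the wild type groups did. With all libraries the averaged log2 fold change was 0.68 (SE 0.32, edgeR adjusted p 0.143), and without wild type TAC replicate 7 it was 0.47 (SE 0.13, edgeR adjusted p 0.02).

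Bag3 (chr7:128523616-128546981, plus strand), which links HSP70 to small heat shock proteins and to autophagy, had 341, 277, 278 and 284 CPM in Ccl24 KO TAC hearts, and 290, 322 and 336 CPM as the lowest, median and highest wild type TAC level. Ccl24 KO sham hearts had 301 and 275 CPM and wild type sham hearts 324 and 333 CPM. TAC and sham hearts overlapped in both genotypes. The averaged log2 fold change was -0.01 (approximate 95% interval -0.16 to 0.13).

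Dnajb1 (chr8:83608193-83612653, plus strand), the HSP40 that hands substrates to HSP70, was the member that separated the groups most clearly. It had 27.5, 29.3, 32.0 and 33.5 CPM in Ccl24 KO TAC hearts, and 22.7, 22.3, 21.2, 20.7, 20.6 and 20.7 CPM in the 6 wild type TAC hearts. Sham hearts had 22.1 and 16.6 CPM in Ccl24 KO and 20.3 and 19.1 CPM in wild type. As labelled, all 4 Ccl24 KO TAC hearts were above all 10 other hearts. The 6 wild type TAC hearts were close together, with a coefficient of variation of 4.25%. The library labelled as replicate 1 of wild type TAC, with Ccl24 counts at the Ccl24 KO level, had 22.7 CPM of Dnajb1. That is below all 4 Ccl24 KO TAC hearts and just above the 22.3 CPM of replicate 2. Counted as Ccl24 KO, it would narrow the gap between the genotypes, and no fit counted it so.

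In Ccl24 KO hearts Dnajb1 was 1.58-fold higher after TAC than after sham (log2 fold change 0.66, SE 0.12, edgeR adjusted p 0.00687), the 1 member of 10 called in this comparison. Over all genes, 2.36% were called higher and 1.73% lower (4.08% in either direction). Fitted with the 2 Ccl24 KO groups alone, without the spread of wild type hearts, 6 members passed by edgeR: Dnajb1, Hspa1a (adjusted p 0.0025), Hspa1b (0.0042), Hsp90aa1 (0.012), Hspb1 (0.021) and Cryab (0.049), all higher after TAC, beside 9.51% of all genes called in that fit. The Dnajb1 call was lost without Ccl24 KO sham replicate 1 (log2 fold change 0.88) or replicate 2 (0.47). Each of these fits leaves 1 Ccl24 KO sham heart, and calls over all genes fell in them too. In wild type hearts the log2 fold change of Dnajb1 was 0.12 (SE 0.11, edgeR adjusted p 0.484; approximate 95% interval -0.09 to 0.33). The averaged change was 0.39 (SE 0.08, edgeR adjusted p 0.00304), and it passed in all 14 fits that left out 1 library (0.0025 to 0.026).

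**Figure D3:**
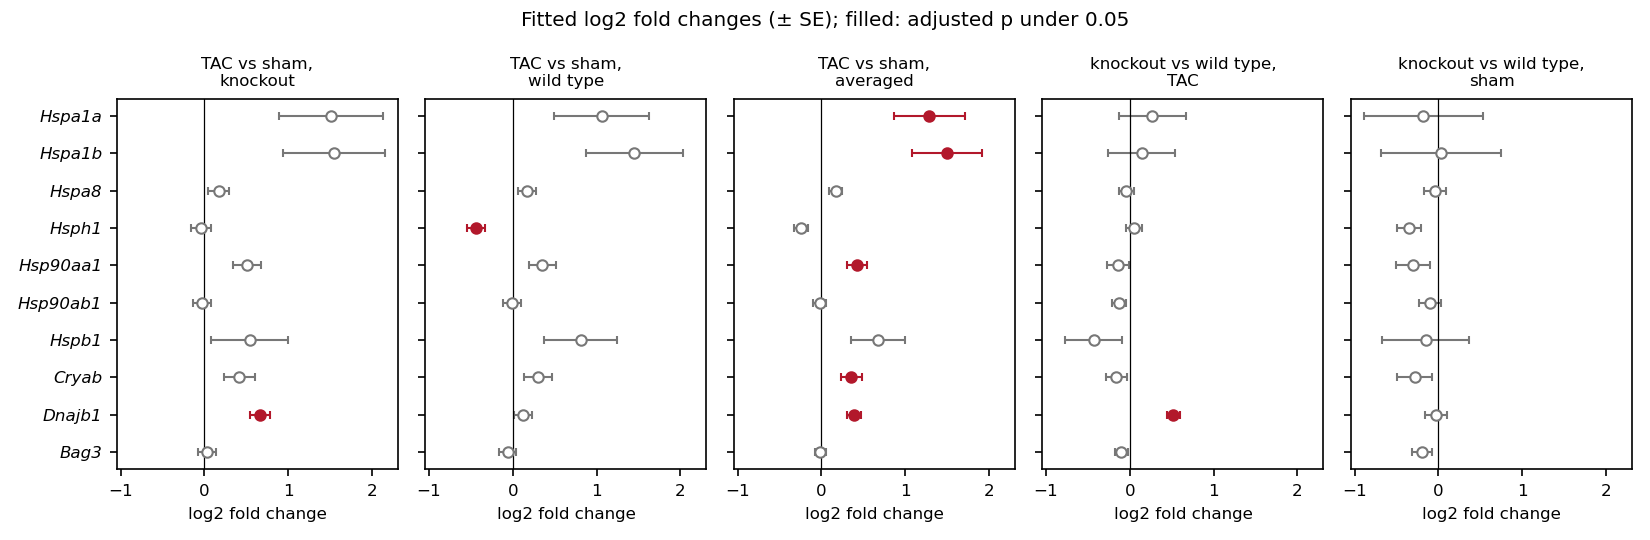
Log2 fold change of each chaperone gene for TAC over sham in Ccl24 KO, in wild type and averaged over genotypes, and for Ccl24 KO over wild type after TAC and after sham; bars span 1 SE either side and filled points passed an edgeR adjusted p of 0.05. Dnajb1 is filled in 3 of the panels (0.66, 0.39 and 0.52) and Hsph1 is filled below 0 in wild type (-0.44).

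In the wild type comparison Hsph1 was the 1 member of 10 that passed, beside 12.2% of all genes (6.36% higher and 5.8% lower). Groups that do not overlap give a second count. In Ccl24 KO hearts 7 of the 10 members had every TAC heart above both sham hearts, beside 17% of all genes, and none was wholly below, beside 17.6%. In wild type hearts 3 members, Hspa1b, Hspa8 and Dnajb1, did so, beside 16.3% of genes, and Hsph1 alone was wholly below, beside 16.6%. The 2 genotypes have unequal numbers of TAC hearts, and these counts are not compared with each other. The members' median log2 fold change was 0.46 in Ccl24 KO and 0.24 in wild type, beside -0.01 and 0.01 over all genes.

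Between genotypes after TAC, Dnajb1 was the 1 member that differed, beside 9.34% of all genes called (3.71% higher and 5.63% lower). It was 1.43-fold higher in Ccl24 KO TAC than in wild type TAC hearts, at 30.6 ± 2.67 against 21.4 ± 0.907 CPM (log2 fold change 0.52, SE 0.08, edgeR adjusted p 0.00282, approximate 95% interval 0.36 to 0.68). As labelled, the 2 groups did not overlap, as for 2.44% of all genes in this direction. It passed in all 14 fits that left out 1 library (edgeR adjusted p 0.001 to 0.018), and was 0.54 (edgeR adjusted p 0.001) without the library labelled as replicate 1 of wild type TAC and 0.52 (edgeR adjusted p 0.0032) without wild type TAC replicate 7.

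The other 9 members overlapped between the TAC groups. The intervals were narrow for Hspa8 (-0.21 to 0.12), Hsph1 (-0.13 to 0.23) and Bag3 (-0.26 to 0.06), and wide for Hspb1 (-1.09 to 0.24) and Hspa1a (-0.52 to 1.06). Hspa1a averaged 5.53 ± 0.846 CPM in Ccl24 KO TAC and 4.53 ± 3.56 CPM in wild type TAC hearts (log2 fold change 0.27, SE 0.40, edgeR adjusted p 0.698). Without wild type TAC replicate 7 the wild type mean was 3.13 ± 1.07 CPM (n = 5), and the log2 fold change became 0.83 (SE 0.21, edgeR adjusted p 0.022). Hspa1a was called in this comparison only with that library left out. Hspa1b was 0.14 (edgeR adjusted p 0.85) with all libraries and 0.63 (edgeR adjusted p 0.11) without replicate 7.

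After sham no member differed between genotypes by edgeR, DESeq2 or limma voom, beside 0.126% of all genes by edgeR (0.0378% higher and 0.0882% lower). At an unadjusted edgeR p under 0.05 there was 1 member, Hsph1, and 11.3% of all genes. Hsph1 had 60.5 and 50.8 CPM in Ccl24 KO sham, against 73.5 and 68.5 CPM in wild type sham hearts (log2 fold change -0.35, SE 0.14, edgeR adjusted p 0.357). Both Ccl24 KO sham hearts were below both wild type sham hearts for 6 of the 10 members (Hsp90aa1, Hsp90ab1, Hsph1, Hspb1, Cryab and Bag3), beside 26.3% of all genes, and none was wholly above, beside 26.6%. Hsp90aa1 had a log2 fold change of -0.30 (approximate 95% interval -0.69 to 0.08). DESeq2 on all groups called 0.882% of all genes after sham. With the sham groups fitted alone, edgeR called 7.85% of all genes and no member, with an adjusted p of 0.054 for Hsph1 and 0.073 for Hsp90aa1.

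No member's response to TAC differed between genotypes in the interaction test, where edgeR and limma voom called 0 genes and DESeq2 called 6 genes, none of them a member. At an unadjusted p under 0.05, 2 members and 4.08% of all genes stood: Dnajb1 (0.54, SE 0.16, unadjusted edgeR p 0.0031, approximate 95% interval 0.24 to 0.85) and Hsph1 (0.40, SE 0.17, unadjusted edgeR p 0.031). Their adjusted p was 0.997. So the Dnajb1 and Hsph1 calls seen in 1 genotype are not shown to be differences between genotypes in the response to TAC. Ccl24 KO against wild type averaged over surgeries gave 0 members called by edgeR and limma voom and 1, Dnajb1, by DESeq2 (edgeR 0.25, SE 0.08, adjusted p 0.0598; DESeq2 adjusted p 0.044), beside 8.94% of all genes by edgeR (3.73% higher and 5.22% lower). It passed by edgeR without the library labelled as replicate 1 of wild type TAC (0.26, adjusted p 0.043) and without Ccl24 KO TAC replicate 1 (0.26, adjusted p 0.038).

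The rest of the chaperone machinery was described by 8 lists with 64 tested genes. Averaged over genotypes, 8 of the 64 rose with TAC and 7 fell by edgeR, 15 in all, which is near the share of all genes called (24.2%). Fewer rose and fewer fell when any sham heart was left out, which leaves 1 sham heart in that group. The share of all genes called fell in those fits too. Without the library labelled as replicate 1 of wild type TAC, 10 rose and 9 fell, beside 27.6% of all genes called. The heat shock factors Hsf1, Hsf2 and Hsf4 and the factor binding protein Hsbp1 were not among them, with log2 fold changes of -0.08, -0.09, -0.16 and 0.10. Hsf1, the main regulator of the heat shock response, had 41.3 ± 2.35 and 39.3 ± 3.51 CPM in Ccl24 KO and wild type TAC hearts, against 42.8 ± 1.35 and 42.2 ± 1.5 CPM in the sham hearts of the same genotypes.

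Of 6 other small heat shock proteins tested, 2 rose with TAC averaged over genotypes, beside 12.7% of all genes. Their median log2 fold change was 0.32. Hspb6, known as HSP20, had 1280 ± 224 CPM in Ccl24 KO TAC and 1000 ± 142 in wild type TAC hearts, against 764 ± 5.57 and 770 ± 47.9 CPM in the sham hearts of the same genotypes (0.56, SE 0.12, edgeR adjusted p 0.0034). This call stood in all 14 fits that left out 1 library. Hspb7, a heart and muscle member, had an averaged log2 fold change of 0.44 (SE 0.14, edgeR adjusted p 0.03), a call lost without any of the 4 sham hearts (adjusted p up to 0.11).

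Of 9 other HSP70 and HSP110 genes, 2 rose and 1 fell in the averaged comparison, beside 12.7% and 11.6% of all genes. Hspa1l, which lies beside Hspa1a and Hspa1b, had 18.2 ± 4.81 and 19.2 ± 4.81 CPM in Ccl24 KO and wild type TAC hearts, against 8.79 ± 0.652 and 13.2 ± 0.596 CPM in the matching sham hearts (0.80, SE 0.18, edgeR adjusted p 0.0073, called in all 14 fits). Hspa2 rose by 0.49 (edgeR adjusted p 0.011) on the log2 scale, but not without Ccl24 KO sham replicate 1 or wild type sham replicate 2 (adjusted p up to 0.085). The log2 fold change of Hspa12a was -0.34 (edgeR adjusted p 0.039), a call kept in 7 of the 14 fits (adjusted p up to 0.2).

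Among 9 other cytosolic DNAJ genes, Dnajb4 (0.35) and Dnaja4 (0.31) rose, beside 12.7% of all genes called higher. Of 9 HSP70 exchange and folding co-chaperones Bag2 rose (0.47, SE 0.13, edgeR adjusted p 0.019). These 3 calls were each lost without any of the 4 sham hearts (adjusted p up to 0.11). Of 8 subunits of the cytosolic chaperonin TRiC, Cct3 rose (0.23, edgeR adjusted p 0.041), in 5 of the 14 fits that left out 1 library (adjusted p up to 0.15).

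Of 12 HSP90 co-chaperones tested, 5 fell and none passed as higher, beside 11.6% of all genes called lower. Their median log2 fold change was -0.14, and 5 of the 12 had values above 0. Unc45b, a myosin chaperone that works with HSP90, had 201 ± 8.44 and 190 ± 15.3 CPM after TAC in Ccl24 KO and wild type, against 229 ± 12.9 and 254 ± 5.47 CPM after sham (-0.30, SE 0.07, edgeR adjusted p 0.0051). Cdc37l1 was also lower (-0.38, edgeR adjusted p 0.0033), and both calls stood in all 14 fits. Fkbp4, an immunophilin of steroid receptor complexes, had 283 ± 25.6 CPM in Ccl24 KO TAC and 209 ± 65.1 in wild type TAC hearts, against 394 ± 21.9 and 343 ± 3.85 CPM in the matching sham hearts (-0.59, SE 0.16, edgeR adjusted p 0.019). It was lost without any of the 4 sham hearts (adjusted p up to 0.069), and Tomm34 (-0.29) was lost without Ccl24 KO sham replicate 1 or wild type sham replicate 2 (adjusted p up to 0.1). The number called lower fell to 2 of 12 without Ccl24 KO sham replicate 1.

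Of 7 mitochondrial chaperones 1 fell, beside 11.6% of all genes: Hspd1, the mitochondrial HSP60 (-0.40, SE 0.11, edgeR adjusted p 0.015). It was lost without Ccl24 KO sham replicate 1 or either wild type sham heart (adjusted p up to 0.093).

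After TAC, 2 of the 64 genes differed between genotypes by edgeR, both higher in Ccl24 KO, beside 9.34% of all genes. At an unadjusted p under 0.05 there were 18, close to the share over all genes (28.8%). These counts moved with single libraries. Without the library labelled as replicate 1 of wild type TAC, 11 were higher and 4 lower, beside 18.5% of all genes called. Without Ccl24 KO TAC replicate 1, 4 were higher and 4 lower, beside 13.7%. None was called when Ccl24 KO TAC replicate 2, 4 or 5 was left out, beside 3.83%, 2.85% and 1.9% of all genes. Nor was any called without replicate 3 or 4 of the wild type TAC hearts, beside 4.15% and 4.22%. In each fit with none, the share of all genes called was also below that with all libraries. Leaving out replicate 2 of wild type TAC gave 1, beside 10.2%. Hsf2, a second heat shock factor, had 16.3 ± 0.736 CPM in Ccl24 KO TAC and 13.3 ± 0.628 CPM in wild type TAC hearts (0.29, SE 0.07, edgeR adjusted p 0.027), a call kept in 9 of the 14 fits that left out 1 library (adjusted p up to 0.099). Dnaja1, another J-domain partner of HSP70, had 88.7 ± 18.3 CPM in Ccl24 KO TAC, against 69.3 ± 4.75 CPM in wild type TAC hearts (0.36, SE 0.11, edgeR adjusted p 0.047). That call stood in 2 of the 14 fits (adjusted p up to 0.18). After sham, edgeR called none of the 64 genes, beside 0.126% of all genes. At an unadjusted edgeR p under 0.05 there were 7 of the 64, near the share over all genes (11.3%).

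Some members ranked the wild type TAC hearts alike, as did the summed immediate early genes, and other members did not. Hsp90aa1, Hspb1 and Cryab had the same order over wild type TAC hearts, replicates 7, 6, 4, 3, 1 and 2 from high to low, which was also the order of the summed level of immediate early genes. That sum was 2240 CPM in replicate 7, 1440, 1390, 1140 and 971 in replicates 6, 4, 3 and 1, and 913 CPM in replicate 2. Ccl24 KO TAC replicate 1 was highest of its group for Hsp90aa1, Hsp90ab1, Hspb1, Cryab and Bag3 and for the immediate early sum, 1650 CPM against 1010 to 1250 in the other 3. It was lowest of its group for Hspa1a, Hspa1b, Hsph1 and Dnajb1. In wild type TAC hearts Dnajb1 ran in the order of replicates 1, 2, 3, 4, 7 and 6 from high to low, and Hsph1 was lowest in replicate 7. Sham hearts had immediate early sums of 665 and 675 CPM in Ccl24 KO and 721 and 663 CPM in wild type, below every TAC heart. Of 24 immediate early genes tested, 14 rose with TAC averaged over genotypes, beside 12.7% of all genes, and none fell, beside 11.6%. The number that rose was 18 without wild type TAC replicate 7, beside 26% of all genes called in either direction. It was lowest without wild type sham replicate 2, a fit that leaves 1 wild type sham heart. After TAC, 10 were higher in Ccl24 KO than in wild type hearts and 1 was lower, beside 3.71% and 5.63% of all genes. The number higher ran from 6, when Ccl24 KO TAC replicate 5 was left out, to 13, when wild type TAC replicate 7 was. The shares of all genes called in either direction in these fits were 1.9% and 8.97%. Dusp1, a phosphatase of MAP kinases, had 79.8 ± 11.1 CPM in Ccl24 KO TAC, against 41.4 ± 7.97 CPM in wild type TAC hearts. Their part in the chaperone results was not tested.

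**Figure D4:**
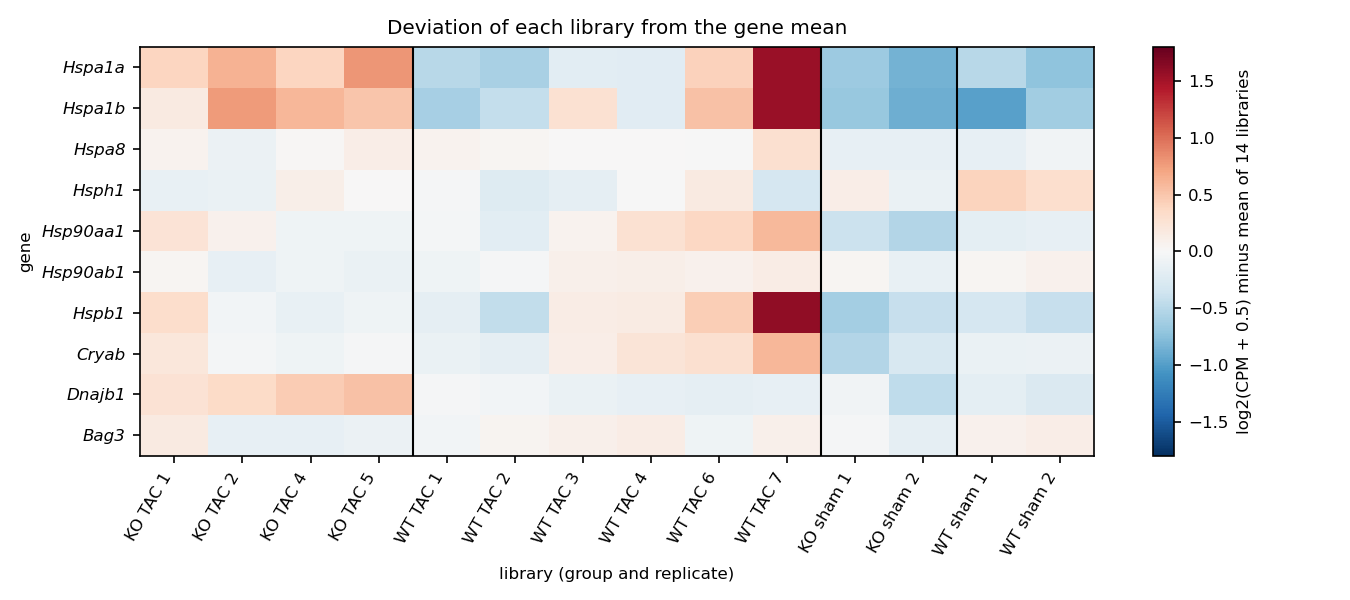
Deviation of each chaperone gene from its mean over the 14 libraries, as log2(CPM + 0.5), with libraries in columns grouped as Ccl24 KO TAC, wild type TAC, Ccl24 KO sham and wild type sham. Wild type TAC replicate 7 is the highest column for Hspa1a, Hspa1b, Hspa8, Hsp90aa1, Hsp90ab1, Hspb1 and Cryab and the lowest for Hsph1, and Dnajb1 is high across the 4 Ccl24 KO TAC columns.

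Markers of other heart cells also differed between the groups. The summed level of 10 fibroblast markers was 4510 to 6160 CPM in Ccl24 KO TAC, 6230 to 12000 in wild type TAC, 4680 to 5100 in Ccl24 KO sham and 5470 to 5640 CPM in wild type sham hearts. That of 10 macrophage markers was 511 to 691, 592 to 1140, 466 to 493 and 465 to 490 CPM in the same groups. No marker of either list was at 0. Wild type TAC replicate 7 had the highest sum of both lists and the lowest cardiomyocyte sum, 58900 CPM. After TAC, 5 of 10 fibroblast and 5 of 10 macrophage markers were lower in Ccl24 KO than in wild type hearts and none was higher. Of all genes, 5.63% were called lower and 3.71% higher. Without the library labelled as replicate 1 of wild type TAC, 10 fibroblast and 9 macrophage markers were lower, beside 18.5% of all genes called. Without Ccl24 KO TAC replicate 5 no macrophage marker was lower, beside 1.9% of all genes called. The sum of 5 erythroid markers was 233 to 914 CPM in Ccl24 KO TAC, 174 to 272 in wild type TAC, 117 to 253 in Ccl24 KO sham and 166 to 192 CPM in wild type sham hearts. All 5 had values above 0 in Ccl24 KO over wild type after TAC (median log2 fold change 1.06) and in Ccl24 KO TAC over sham (median 1.34), each with an unadjusted p under 0.05 and none called. Without Ccl24 KO TAC replicate 1, all 5 were called higher in Ccl24 KO than in wild type after TAC, beside 13.7% of all genes called. Of 10 cardiomyocyte markers, 9 had values above 0 in Ccl24 KO over wild type after TAC (median 0.23, 6 with an unadjusted p under 0.05, 1 called, and 5 called without the library labelled as replicate 1 of wild type TAC). The part of these cell types in the Dnajb1 difference and in the HSP70 levels was not tested.

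The spread over all 14 libraries, as an SD of log2(CPM + 0.5), was 0.74 for Hspa1b, 0.71 for Hspa1a and 0.55 for Hspb1. It was 0.29 for Hsp90aa1 and Dnajb1, 0.27 for Cryab, 0.20 for Hsph1, 0.12 for Hspa8, 0.11 for Bag3 and 0.10 for Hsp90ab1. Likeness between centred profiles was measured as the root mean square difference of log2(CPM + 0.5) over the 14 libraries, which is smaller for genes that vary little. Hsp90aa1 and Cryab were 0.09 apart and Hspa1a and Hspa1b 0.22, a pair that shares reads. The 5 genes most like Hspa1a were Tmem173, Fosl2, Tagln, Junb and Cldn15, at 0.30 to 0.32. For Hspa1b they were Junb, Fcgr1, Tmem173, Dynll1 and Zfp185, at 0.34 to 0.36. For Hspb1 they were Bdnf, Rnf19b, Il4ra, Il17ra and Tgm2, at 0.15 to 0.18. All 3 profiles have wild type TAC replicate 7 as their highest library.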

How the data were processed

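Libraries were made from polyadenylated RNA of mouse hearts. Per the submitters' processing notes, the tools included HISAT2 2.1.0, FastQC, featureCounts and edgeR, with build GRCm38; the strand setting and the handling of reads with several matches are not stated there. The deposited table holds raw counts per gene, made by the authors, and was used as deposited for 14 libraries. P-values measure the spread between hearts.

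Counts were filtered (filterByExpr), scaled (TMM) and fitted over all 4 groups in edgeR 4.0.16 (R 4.3.3; quasi-likelihood F test, robust), with Benjamini-Hochberg adjustment over 15876 genes and a threshold of 0.05. Contrasts were TAC against sham in each genotype and averaged, Ccl24 KO against wild type after each surgery and averaged, and the interaction. CPM values are TMM scaled. Alternatives were RLE scaling, no filter, DESeq2 1.42.0, limma voom 3.58.1, compared groups alone, a replicate block, the HSP70 pair summed, and each library left out. Named genes in other lists were the called ones with the smallest adjusted p, at most 4 a list and comparison. Likeness used log2(CPM + 0.5) for the 3 members of widest spread. Lengths and overlaps came from GENCODE M21 and promoters from RefSeq (GRCm38.p6). The members and lists were chosen with earlier results of these data known.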

Additional observations from a re-analysis of the deposited data

Results flagged for a closer look

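In wild type TAC hearts, replicate 7 lay farther from the other 5 than Dixon's 95% limit allows for 4 members. It had 11.5 CPM of Hspa1a, 9.53 CPM of Hspa1b, 1480 CPM of Hspa8 and 971 CPM of Hspb1. Among Ccl24 KO TAC hearts, replicate 1 did so for 3 members, with 402 CPM of Hspb1, 2480 CPM of Cryab and 341 CPM of Bag3. Members were examined in both TAC groups, 20 groups of values in all, and chance flags about 1 in 20. The flags fall on 2 libraries, and the members are not independent of each other within a library.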

How the results depend on the processing

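The number of members called moved by more than 1.5 times under some settings. For TAC over sham averaged over genotypes it was 5, against 3 with no filter on low counts, 3 with limma voom, and 1 to 7 when 1 library was left out. In wild type it was 1, against 2 with DESeq2, 0 with the compared groups alone, and 0 to 1 with 1 library left out. In Ccl24 KO it was 1, against 3 with DESeq2, 6 with the compared groups alone, and 0 to 4 with 1 library left out. For Ccl24 KO over wild type after TAC it was 1, and 1 to 2 with 1 library left out. Averaged over surgeries it was 0, against 1 with DESeq2 and 0 to 1 with 1 library left out. RLE scaling moved no count beyond 1.5 times. No count was made with the HSP70 pair summed. The share of all genes called also moved with the setting. Averaged over genotypes it was 24.2%, against 11.8% with no filter and 22.4% with limma voom. In wild type it was 12.2%, against 17.4% with DESeq2 and 4.74% with the compared groups alone. In Ccl24 KO it was 4.08%, against 8.16% and 9.51% in the same settings. Averaged over surgeries it was 8.94%, against 13.2% with DESeq2. Leaving out any sham heart lowered the share in each of these comparisons. Dividing by the longest transcript changed 4 of 40 ranks of level.

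Replicate numbers shared by groups do not pair the hearts: over 13 pairs with a shared number, the correlation of deviations from group means ran from -0.24 to 0.11 and 1 exceeded 0.1. Numbers 3, 6 and 7 occur in wild type TAC only and number 5 in Ccl24 KO TAC only. A block term fits each of those hearts exactly, so the block values below rest on the other hearts, wild type TAC replicate 1 among them. Changes under the block are thus also changes in the hearts used. With the replicate block, the count was 0 in wild type (22 genes called of all tested, against 1930 without it), 3 in Ccl24 KO (367, against 648), 0 for Ccl24 KO over wild type after TAC (45, against 1483) and 4 averaged over genotypes (1478, against 3848), 3 higher and Hsph1 lower. Under the block Dnajb1 was 0.44 after TAC (edgeR adjusted p 0.17), averaged Hsp90aa1 was 0.33 (0.086) and averaged Cryab 0.24 (0.27), none of them called, and the signs turned for Hsp90aa1 (0.08), Hspb1 (0.20) and Cryab (0.04) after TAC, for the interaction of Hsp90ab1 (0.04) and Hspb1 (0.35), for averaged Bag3 (0.00), and for Hspb1 averaged over surgeries (0.03); none was called.

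The interaction of Hspa8, near 0, turned to 0.01 with RLE scaling, no filter and DESeq2, and to 0.00 with limma voom. Leaving out 1 library turned the sign of 18 uncalled log2 fold changes. For averaged TAC over sham the ranges were -0.05 to 0.02 for Bag3 and -0.06 to 0.03 for Hsp90ab1. In Ccl24 KO they were -0.04 to 0.10 for Bag3, -0.12 to 0.06 for Hsp90ab1 and -0.16 to 0.10 for Hsph1, and in wild type -0.04 to 0.02 for Hsp90ab1. For Ccl24 KO over wild type after TAC they were -0.01 to 0.63 for Hspa1b, -0.08 to 0.01 for Hspa8 and 0.00 to 0.12 for Hsph1. After sham they were -0.25 to 0.16 for Dnajb1, -0.20 to 0.28 for Hspa1b and -0.09 to 0.00 for Hspa8. Averaged over surgeries they were -0.03 to 0.32 for both Hspa1a and Hspa1b. For the interaction they were -0.15 to 0.62 for Hspa1b, -0.05 to 0.07 for Hspa8, -0.11 to 0.06 for Hsp90ab1 and -0.40 to 0.15 for Hspb1. The causes were not tested.

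Limits: sham groups hold 2 hearts each, so that with 1 left out the lone heart is assumed to vary like the other groups. Calls of TAC over sham fell over all genes when any sham heart was left out, so a call lost there is not particular to a member. Hspa1a and Hspa1b rest on 28 to 385 counts a library and share sequence. A library labelled wild type TAC has Ccl24 counts at the Ccl24 KO level. Intervals and the limit of 3 counts cover no error before counting.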
